A study of Mus musculus with 9 samples.

Results

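The genes Hsd3b5, Selenbp2, Moxd1, Cib3, Elovl3, Cyp2d9, Mup3, Mup20, and Slc3a1 were examined in the liver as output genes known or proposed to depend on the pulses of growth hormone (GH) of male mice. They were chosen by symbol, with earlier results of the PRF 50 vs. HFD and HFD vs. ND comparisons of these same livers known, and were selected on a value above 0 in at least 1 of the 9 livers. All 9 named genes met this condition, out of 23183 gene symbols in the tables, of which 16889 were above 0 in at least 1 liver. Because the values of these livers were known when the genes were chosen, their differences between groups are given as a description, without p-values.

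RNA-Seq was performed on livers of male C57BL/6J mice, an inbred strain prone to diet-induced obesity, with 3 mice in each of 3 groups and a separate library from each of the 9 animals. The ND group (mice 6, 7, and 9) was fed a diet with 14% fat for 10 weeks, and the HFD group (mice 1, 2, and 3) a diet with 60% fat for the same time. The PRF 50 group (mice 3, 9, and 10) was fed the 60% fat diet for 10 weeks and was given PRF, a polymethoxyflavone-rich fraction of the leaf of Citrus sunki, by mouth at 50 mg/kg per day during the last 5 weeks. All mice were of the wild-type strain, were at postnatal day 100 per the labels, and were fasted for 8 h before the liver was taken. Equal mouse numbers in different groups are different animals.

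In male rodents, the pituitary releases GH in pulses separated by intervals with little hormone, whereas release in females is closer to continuous. Each pulse activates the GH receptor and the kinase JAK2 on hepatocytes, and the transcription factor STAT5B then turns on genes that are higher in male liver, together with feedback inhibitors of the same pathway such as Socs2 and Cish. Loss of the pulses lowers male-biased genes and raises female-biased genes in the liver. Hormone levels and female livers were not analysed here, so the dependence of any gene on GH was not tested.

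The values are on the scale log2(FPKM + 1), where FPKM is a fragment count corrected for transcript length and library depth. A value of exactly 0 is described as listed at 0, because albumin (Alb), the main secreted product of hepatocytes, was listed at 0 in all 9 livers. The number of reads behind each value is unknown, as counts were not used here. Relative to HFD mouse 1, the depth, taken from the most frequent ratio of values under 0.5 FPKM, was 1.06, 1.15, and 1.11 in ND mice 6, 7, and 9, 1.17 and 1.60 in HFD mice 2 and 3, and 0.982, 1.51, and 0.963 in PRF 50 mice 3, 9, and 10. Between 14372 and 14980 genes were above 0 in a liver. Among the hepatocyte markers, the apolipoprotein gene Apoa1 was the most abundant, at 12.69 to 13.50 in the 9 livers. The Y-linked gene Eif2s3y was at 4.25 to 5.18 and the female transcript Xist at 0 to 0.01, which matches the labelled male sex. Of 4 tested genes of the sex chromosomes, Eif2s3y was called lower in PRF 50 vs. HFD, by -0.45 ± 0.07 (SE; limma, adjusted p = 0.0272), and was called in 0 of the 6 fits that left out 1 mouse (adjusted p from 0.0511 to 0.0976).

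Hsd3b5 encodes a 3-ketosteroid reductase of the hydroxysteroid dehydrogenase family and is a widely used marker of the male liver. It lies at chr3:98618634-98630252 on the minus strand (GENCODE M21, GRCm38). Hsd3b5 was at 7.30, 6.93, and 7.54 in ND mice 6, 7, and 9, at 5.53, 4.65, and 3.57 in HFD mice 1, 2, and 3, and at 7.39, 6.79, and 8.0 in PRF 50 mice 3, 9, and 10. All 3 HFD livers were below all 6 other livers, and the ND and PRF 50 livers overlapped. Group means were 7.26 ± 0.31 (ND), 4.58 ± 0.98 (HFD), and 7.39 ± 0.60 (PRF 50; SD, n = 3 each). HFD minus ND was -2.68 ± 0.43 (SE of limma), and PRF 50 minus HFD was 2.81 ± 0.50. On the FPKM scale, the PRF 50 mean was 6.64 times the HFD mean, and 10.1 times without HFD mouse 1.

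Selenbp2 encodes a selenium-binding protein of the liver and lies at chr3:94693556-94704413 on the plus strand. It was at 7.01, 7.09, and 6.63 in the ND livers, at 4.72, 4.55, and 4.43 in the HFD livers, and at 7.29, 7.01, and 8.89 in the PRF 50 livers, in the order of mouse numbers given above. The HFD livers were again the 3 lowest of the 9, and their range of 0.29 was small beside the distance to the other groups. PRF 50 mouse 10 was above every other liver. HFD minus ND was -2.34 ± 0.15 (SE), and PRF 50 minus HFD was 3.17 ± 0.44. The ratio of mean FPKM was 11.1, and it was 6.23 without PRF 50 mouse 10.

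Cib3 encodes a calcium- and integrin-binding protein and lies at chr8:72204335-72212837 on the minus strand. It was at 4.19, 1.59, and 3.48 in the ND livers, at 2.23, 0.22, and 0.68 in the HFD livers, and at 4.03, 3.43, and 4.64 in the PRF 50 livers. The ND and HFD livers overlapped, since ND mouse 7 was below HFD mouse 1, whereas the PRF 50 livers were all above the HFD livers. PRF 50 minus HFD was 2.99 ± 0.52 (SE), and HFD minus ND was -2.05 ± 0.71. Hsd3b5, Selenbp2, and Cib3 thus had their lowest group mean in the HFD group and overlapped between the ND and PRF 50 groups.

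**Figure D1:**
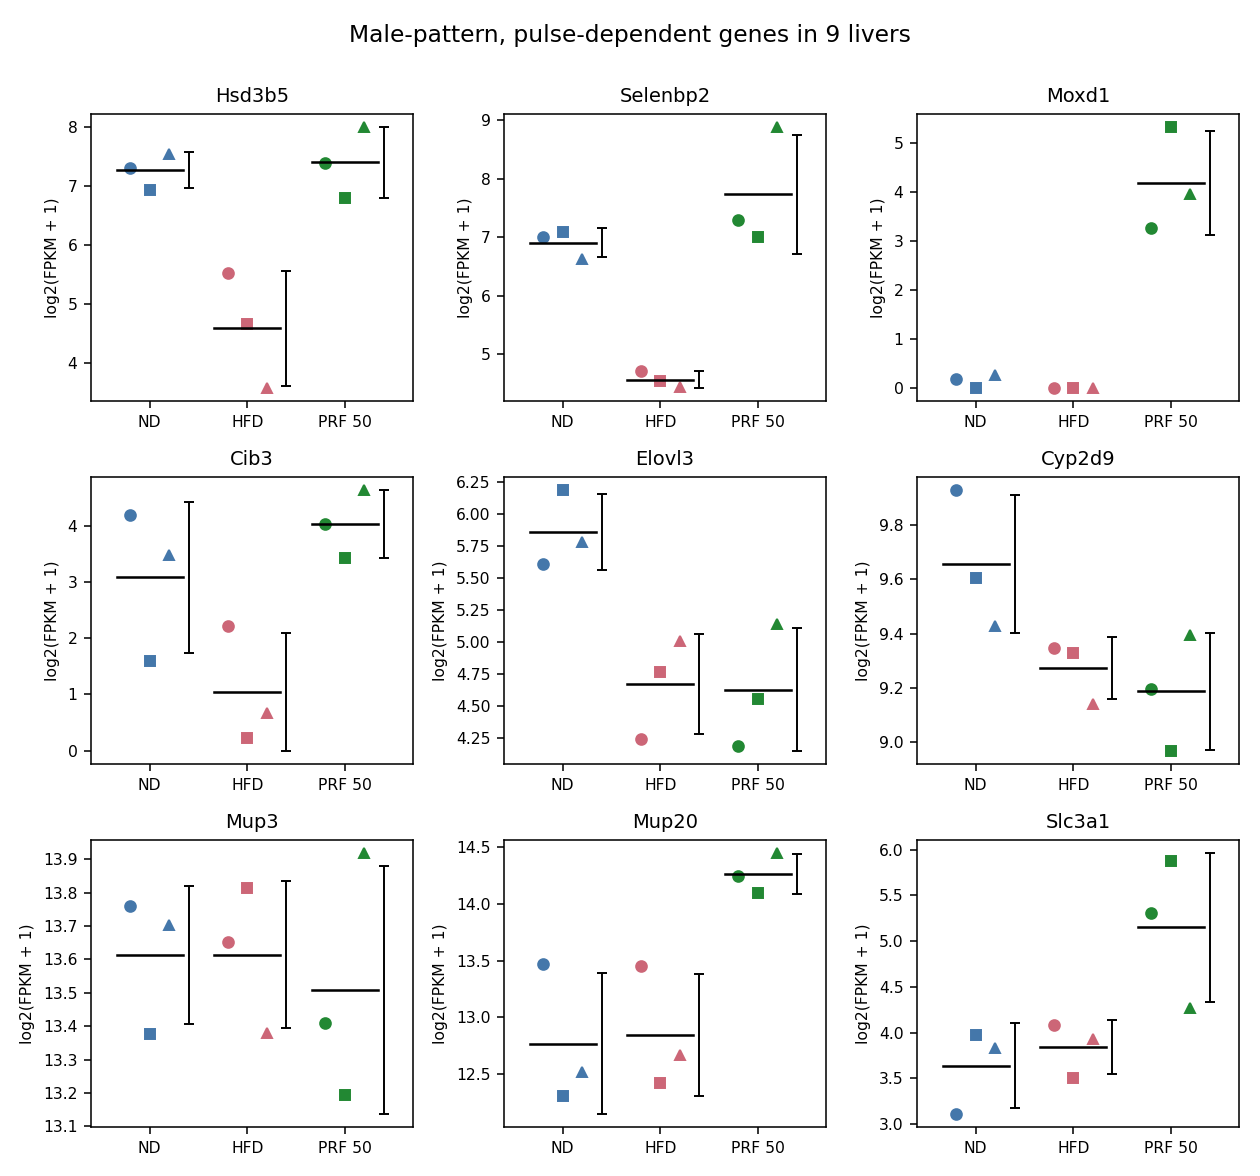
Level of each of the 9 genes in each liver, as log2(FPKM + 1) on the vertical axis and the group on the horizontal axis. Each point is 1 liver (circle, square, and triangle in the order of mouse numbers), the line is the mean and the bar the SD, both left out where a liver is listed at 0; Hsd3b5, Selenbp2, and Cib3 have their lowest mean in the HFD group, and Moxd1, Mup20, and Slc3a1 are highest in the PRF 50 group.

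Elovl3 and Cyp2d9 had another pattern, with low levels in both groups fed the high-fat diet. Elovl3 elongates saturated and monounsaturated very-long-chain fatty acids and lies at chr19:46131897-46135694 on the plus strand. It was at 5.61, 6.19, and 5.78 in the ND livers, at 4.24, 4.77, and 5.01 in the HFD livers, and at 4.19, 4.56, and 5.14 in the PRF 50 livers. Every ND liver was above all 6 livers of the other groups, which overlapped. HFD minus ND was -1.18 ± 0.22 (SE), PRF 50 minus ND was -1.23 ± 0.25, and PRF 50 minus HFD was -0.04 ± 0.27.

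Cyp2d9, a cytochrome P450 of steroid hydroxylation that is higher in male liver, lies at chr15:82433437-82456845 on the plus strand. It was at 9.93, 9.61, and 9.43 in the ND livers, at 9.35, 9.33, and 9.14 in the HFD livers, and at 9.20, 8.97, and 9.40 in the PRF 50 livers. The ND livers were the 3 highest, but ND mouse 9 was above PRF 50 mouse 10 by a small margin only. HFD minus ND was -0.38 ± 0.17 (SE), PRF 50 minus ND was -0.47 ± 0.18, and PRF 50 minus HFD was -0.09 ± 0.14. The sign of PRF 50 minus HFD changed for both Elovl3 and Cyp2d9 under quantile normalization, to 0.03 and 0.01.

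For Moxd1, Mup20, and Slc3a1, the PRF 50 livers lay above all ND and HFD livers. Moxd1 encodes a monooxygenase related to dopamine beta-hydroxylase and lies at chr10:24223517-24302790 on the plus strand. It was at 0.18 and 0.27 in ND mice 6 and 9, listed at 0 in ND mouse 7 and in all 3 HFD livers, and at 3.26, 5.34, and 3.96 in PRF 50 mice 3, 9, and 10. The 3 PRF 50 livers were thus all well above the other 6. PRF 50 minus ND was 4.04 ± 0.45 (SE), and no fold against the HFD group is given because it is listed at 0 there. Its mean in the ND and HFD groups together was below 1 FPKM, so the gene was not tested in HFD vs. ND.

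Mup20 (also called darcin) encodes a major urinary protein, a pheromone-carrying protein that the male liver secretes and the kidney passes into urine. It lies at chr4:62050234-62054158 on the minus strand. It was at 13.47, 12.31, and 12.52 in the ND livers, at 13.45, 12.42, and 12.67 in the HFD livers, and at 14.24, 14.10, and 14.44 in the PRF 50 livers. ND mouse 6 and HFD mouse 1 were the highest of their groups, and both were below every PRF 50 liver. PRF 50 minus HFD was 1.41 ± 0.30 (SE), and PRF 50 minus ND was 1.49 ± 0.32.

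Slc3a1 encodes the heavy chain of an amino acid exchanger for cystine and dibasic amino acids and lies at chr17:85028376-85064236 on the plus strand. It was at 3.11, 3.97, and 3.84 in the ND livers, at 4.08, 3.51, and 3.93 in the HFD livers, and at 5.30, 5.88, and 4.27 in the PRF 50 livers. The lowest PRF 50 liver, mouse 10, was above the highest HFD liver, mouse 1, by less than the SD of either group. PRF 50 minus HFD was 1.31 ± 0.38 (SE), and PRF 50 minus ND was 1.51 ± 0.40. The light chains that pair with the Slc3a1 protein in kidney and intestine, Slc7a9 and Slc7a13, were both listed at 0 in all 9 livers.

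Mup3 differed little between the groups. It encodes another major urinary protein and lies at chr4:62083476-62087342 on the minus strand. It was at 13.76, 13.38, and 13.70 in the ND livers, at 13.65, 13.81, and 13.38 in the HFD livers, and at 13.41, 13.19, and 13.92 in the PRF 50 livers. All 3 groups overlapped, and the differences between group means were 0.001 for HFD minus ND and -0.11 for PRF 50 minus HFD, with SEs of 0.24 and 0.26. Of the 9 genes, Mup3 had the highest level per length of transcript in all 6 ND and HFD livers, followed by Mup20, and this order was the other way around in the 3 PRF 50 livers. Cyp2d9 was in the third place in every liver.

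In PRF 50 vs. HFD, the livers of the groups did not overlap for 6 of 9 genes, all higher in the PRF 50 group, against 10.9% of 10084 tested genes higher and 15.3% lower without overlap. In HFD vs. ND, the groups did not overlap for 4 of 9 genes, all lower in the HFD group, against 10.7% of 9978 tested genes higher and 10% lower. In PRF 50 vs. ND, they did not overlap for 3 genes higher and 2 genes lower in the PRF 50 group, against 8.19% and 11.8% of 10051 tested genes. Because the genes were chosen with results of these livers known, nothing is read from these counts. All 9 genes passed the minimum mean of 1 FPKM in both comparisons with the PRF 50 group, Moxd1 only through its level in the PRF 50 livers, and all but Moxd1 passed it in HFD vs. ND. As background for the gene lists described further on, limma with Benjamini-Hochberg adjustment called 1.43% of all tested genes higher and 2.16% lower in PRF 50 vs. HFD, 0.702% and 0.631% in HFD vs. ND, and 0.159% and 0.298% in PRF 50 vs. ND. An unadjusted p of limma under 0.05 was reached by 2039 of 10084 tested genes in PRF 50 vs. HFD and 1504 of 9978 in HFD vs. ND. In PRF 50 vs. ND it was reached by 1256 of 10051. Counts of list genes at that level are given as a description only.

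The size of the differences varied with the livers included. With 1 mouse left out, PRF 50 minus HFD lay between 2.31 and 3.29 for Hsd3b5, with the smallest value without HFD mouse 3. It lay between 2.59 and 3.53 for Selenbp2, with the smallest value without PRF 50 mouse 10. The PRF 50 liver with the highest level differed between genes, and was mouse 9 for Moxd1 and mouse 10 for Selenbp2.

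Over the 9 genes, the median difference was 1.41 in PRF 50 vs. HFD, -0.38 in HFD vs. ND, and 0.82 in PRF 50 vs. ND, where the median over all tested genes was -0.02, -0.01, and -0.03. The median of PRF 50 vs. HFD was larger under quantile normalization. That of HFD vs. ND was further below 0 with a pseudocount of 0.1 (values in the closing section). Without Moxd1, which was not tested in HFD vs. ND, the median of the other 8 genes in that comparison was -0.78. The 3 comparisons share livers, so their differences are not independent. The median of PRF 50 vs. ND rested on single livers: it was 0.24 without PRF 50 mouse 10 and 0.20 without ND mouse 7.

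Several of the 9 genes have close relatives, and the levels of near-identical copies can be split or joined in the counting of fragments, so values of single family members are uncertain. Selenbp1, the copy of Selenbp2 on the same chromosome at chr3:94933056-94944758, was at 7.57, 7.13, and 7.31 in the ND livers, at 7.45, 7.17, and 7.19 in the HFD livers, and at 7.14, 7.11, and 7.16 in the PRF 50 livers. It stayed within a range of less than 0.5 across the 9 livers in which Selenbp2 varied from 4.43 to 8.89. The Hsd3b5 relatives of the liver, Hsd3b2, Hsd3b3, and Hsd3b7, had HFD minus ND differences of 0.05 ± 0.19, 0.26 ± 0.13, and -0.06 ± 0.15 (SE). Of 28 named relatives of the 9 genes, 17 were tested in PRF 50 vs. HFD, where limma with Benjamini-Hochberg adjustment called 0. At an unadjusted p under 0.05, 1 was higher and 4 were lower, against 2039 of all 10084 tested genes. In HFD vs. ND, 0 of 17 were called and 2 were higher at an unadjusted p under 0.05.

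**Figure D2:**
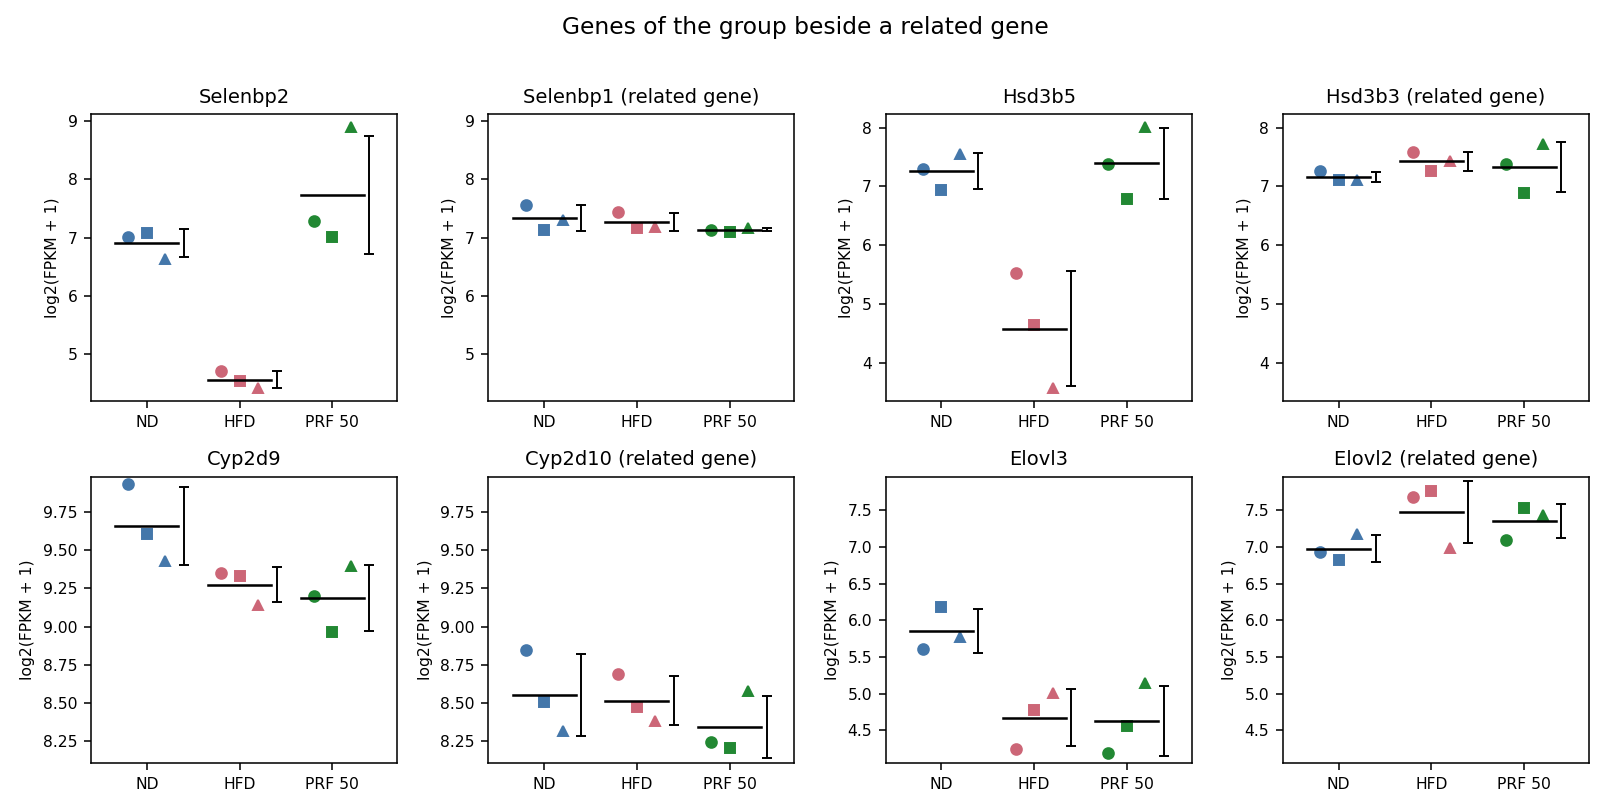
Level of 4 of the genes beside a related gene, as log2(FPKM + 1) on the vertical axis, with the same vertical range in each pair of panels (axes do not start at 0). Points are livers of the group on the horizontal axis, the line is the mean and the bar the SD; Selenbp2 and Hsd3b5 are low in the 3 HFD livers, where Selenbp1 and Hsd3b3 are near their levels in the other livers.

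The promoter sequences of Selenbp2 and Selenbp1 are shown because the levels of the 2 genes differed so much in the HFD livers. The windows run from 250 bases before to 50 bases after the start of the gene in RefSeq (GRCm38.p6), at chr3:94693323-94693622 for Selenbp2 and chr3:94932833-94933132 for Selenbp1, both on the plus strand. In a global alignment with free ends, 272 of 288 aligned bases were identical (94.4%). Capitals mark bases that differ between the sequences or have no partner inside the aligned stretch.
Selenbp2: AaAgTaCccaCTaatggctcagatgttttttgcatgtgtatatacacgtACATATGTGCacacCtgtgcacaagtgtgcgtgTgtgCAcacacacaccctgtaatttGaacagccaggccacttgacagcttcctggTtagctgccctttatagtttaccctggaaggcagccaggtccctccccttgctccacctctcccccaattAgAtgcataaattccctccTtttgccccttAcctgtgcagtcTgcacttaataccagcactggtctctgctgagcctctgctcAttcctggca
Selenbp1: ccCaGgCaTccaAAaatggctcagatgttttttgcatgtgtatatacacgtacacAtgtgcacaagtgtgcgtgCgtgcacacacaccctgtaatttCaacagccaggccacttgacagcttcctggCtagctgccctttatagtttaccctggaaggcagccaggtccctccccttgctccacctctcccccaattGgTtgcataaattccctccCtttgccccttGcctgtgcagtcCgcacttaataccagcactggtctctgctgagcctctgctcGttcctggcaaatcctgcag

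STAT5 proteins bind the sequence TTCNNNGAA, which is its own reverse complement, so a search on 1 strand covers both. RefSeq promoter windows were found for 7 of the 9 genes (all but Elovl3 and Mup20), and 1 of the 7, Moxd1, held the sequence. Over all 32851 promoter windows of the same length, 8.30% held it. The match in Moxd1 begins at position -150 from the start (chr10:24223267-24223566, plus strand) and is shown in capitals.
Moxd1: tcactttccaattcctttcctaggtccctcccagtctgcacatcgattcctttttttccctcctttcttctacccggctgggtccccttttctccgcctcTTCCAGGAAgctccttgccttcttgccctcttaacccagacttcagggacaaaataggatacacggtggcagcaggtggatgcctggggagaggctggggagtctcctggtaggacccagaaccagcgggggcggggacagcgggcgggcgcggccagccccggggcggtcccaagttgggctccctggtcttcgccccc
The windows of Selenbp2, Selenbp1, Hsd3b5, Cib3, Cyp2d9, Mup3, and Slc3a1 held no match, which says only that these letters are not in these windows, and a match is not shown to be a binding site. For Hsd3b5 and Cyp2d9 the RefSeq start used for the window lies 15282 and 18940 bases from the GENCODE start, so their windows may not be at the promoter used in liver. In the 100 bases before the start, 2.55% of all windows held the sequence.

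The other male-biased genes were a named list of 23 genes, chosen with earlier results of these livers known. In HFD vs. ND, 9 of 19 tested were called lower and 1 higher (limma with Benjamini-Hochberg adjustment). Of the 9, Ugt2b38 and Adgrf1 reached 1 FPKM on average in only the ND group of the 2 groups compared, so their direction was set by the minimum level. Serpina1e, a protease inhibitor secreted by hepatocytes, averaged 11.73 in ND livers and 7.82 in HFD livers (limma, adjusted p = 0.014). Cyp4a12b, a fatty-acid hydroxylase, averaged 5.47 and 1.82 (limma, adjusted p = 0.0094), and the epidermal growth factor receptor Egfr 6.39 and 4.77 (adjusted p = 0.0119). Its relative Cyp4a12a, meaning that of Cyp4a12b, is on the same list and is named here after its values were seen. Cyp4a12a averaged 7.42 and 6.11, and the groups overlapped (limma, adjusted p = 0.47). PRF 50 minus HFD was -0.91 for Cyp4a12a and 1.36 for Cyp4a12b, neither called. The assignment of fragments between these relatives was not tested. The median of the tested genes of the list was -1.05, where the median of all tested genes was -0.01. The number called lower was 4 without ND mouse 7 or HFD mouse 3 and 5 without ND mouse 6 or HFD mouse 2. Cyp4a12b was called in all 6 fits that left out 1 mouse, Egfr in all but the fit without HFD mouse 3, and Serpina1e in 3, those without HFD mouse 1, HFD mouse 3, or ND mouse 9.

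Of the same 19 tested genes, 6 were called higher and 1 lower in PRF 50 vs. HFD, with a median of 0.88 against -0.02 for all tested genes. Serpina1e was 12.01 in the PRF 50 group (limma, adjusted p = 0.017 against the HFD group), and the glutathione transferase Gstp1 also was higher, by 2.10 ± 0.21 (SE, adjusted p = 0.0116). The number called higher was 2 without HFD mouse 3 and 3 without HFD mouse 2. The complement gene C6 and Egfr were called in all 6 fits that left out 1 mouse, Gstp1 in all but the fit without HFD mouse 3, and Serpina1e in the 3 fits without HFD mouse 1, PRF 50 mouse 9, or PRF 50 mouse 10. In PRF 50 vs. ND, 1 of 18 tested genes of the list was called higher and 1 lower. C6 was higher by 0.77 ± 0.10 (SE; limma, adjusted p = 0.0269), and of the 6 fits that left out 1 mouse it was called only in the fit without ND mouse 9 (adjusted p from 0.0414 to 0.142). Cyp4a12b was 3.18 in the PRF 50 group, below the ND group (limma, adjusted p = 0.0441), and was called in the fits without ND mouse 6 or PRF 50 mouse 10 only (adjusted p from 0.0401 to 0.137). Elovl3 and Cyp2d9 also were lower in the PRF 50 livers than in the ND livers, without overlap.

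The gene called higher in the HFD livers was Mup12, at 5.35, 6.04, and 6.23 in HFD mice 1, 2, and 3 and listed at 0 in all ND and PRF 50 livers, so it passed the minimum level through the HFD livers alone. It belongs to the cluster that holds Mup3 and Mup20, with 22 named genes between chr4:59956804 and chr4:62150863. Of the 20 named genes in the tables, 10 were listed at 0 in all 9 livers, Mup1, Mup2, and Mup7 among them, and Mup8, Mup16, and Mup17 were above 0 in the HFD livers only. Because an abundant transcript such as Alb is also listed at 0 in these tables and the Mup genes are near-identical, the part of fragment assignment between copies in these values was not tested, and no direction is given for the family. The same limit applies to the levels of Mup3 and Mup20.

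The female-biased genes were a named list of 24 genes, of which 12 were tested in HFD vs. ND. In that comparison, 4 were called higher and 0 lower by limma with Benjamini-Hochberg adjustment (1 was lower at an unadjusted p under 0.05). Cyp2b9, a cytochrome P450 that is higher in female liver, was 2.84, 1.08, and 0.66 in the ND livers, 6.57, 7.14, and 7.41 in the HFD livers, and 1.70, 0.88, and 0.55 in the PRF 50 livers. The HFD livers were far above all others (limma, adjusted p = 0.00419 in HFD vs. ND and 0.000458 in PRF 50 vs. HFD). In PRF 50 vs. HFD, 4 of 12 tested genes were called lower and 0 higher (0 at an unadjusted p under 0.05), with Cyp2b13, Hao2, and the prolactin receptor Prlr beside Cyp2b9. Only Cyp2b9 was called without HFD mouse 2 or without PRF 50 mouse 3, 9, or 10, and 2 genes without HFD mouse 3. In HFD vs. ND, Cyp2b9 alone was called without ND mouse 6 or 7, and 2 genes were called without ND mouse 9, HFD mouse 2, or HFD mouse 3. In PRF 50 vs. ND, limma called 0 of 9 tested female-biased genes, and 1 was lower at an unadjusted p under 0.05. Of the 4 genes called in each comparison with the HFD group, Cyp2b13 and Hao2 reached 1 FPKM on average in the HFD group only, so their direction was set by the minimum level. Fmo2, a flavin monooxygenase, was the fourth gene called in HFD vs. ND, by 1.07 ± 0.16 (SE; limma, adjusted p = 0.0234), and was called in the 3 fits without HFD mouse 1, HFD mouse 2, or ND mouse 9 (adjusted p from 0.0231 to 0.0983). Hamp2, the most abundant gene of the list, was chosen after its values were seen. It was 8.69, 6.40, and 7.65 in the ND livers, 9.22, 8.14, and 9.07 in the HFD livers, and 11.52, 6.38, and 6.77 in the PRF 50 livers, so the groups overlapped and PRF 50 mouse 3 was the highest of the 9.

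**Figure D3:**
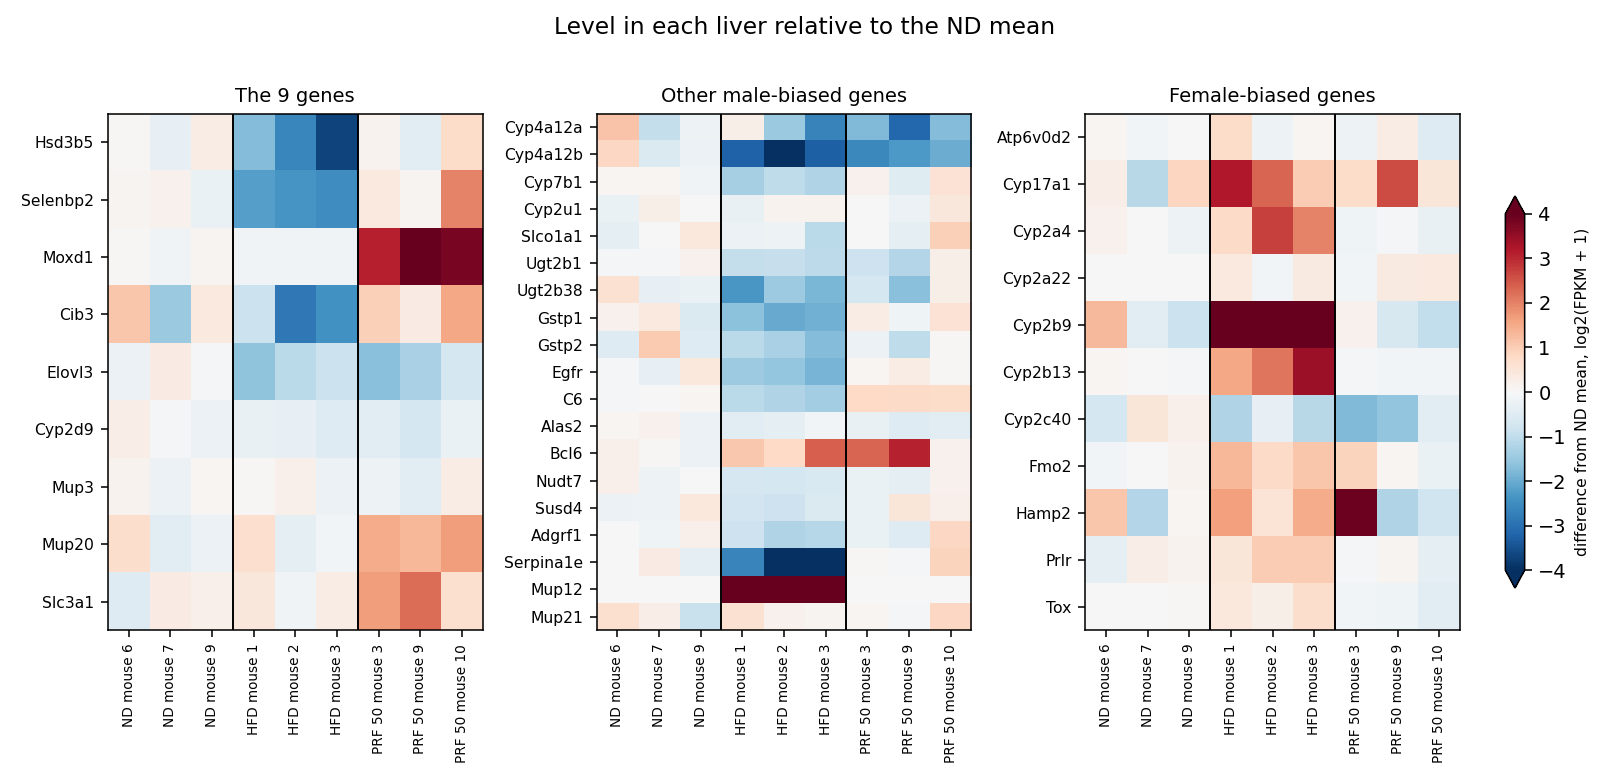
Difference of each liver from the mean of the ND livers for the 9 genes (left), other male-biased genes (middle), and female-biased genes (right) that averaged 1 FPKM or more over the 9 livers. Columns are livers, with lines between groups, and color gives the difference on the log2(FPKM + 1) scale, with values beyond 4 in the end color; Cyp2b9 is high in the 3 HFD livers only, and Serpina1e, Hsd3b5, and Selenbp2 are low in them.

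The genes of GH signaling were a named list of 18, of which 17 were tested in each comparison. The receptor Ghr was 8.19, 8.13, and 8.24 in the ND livers, 8.43, 8.23, and 8.43 in the HFD livers, and 8.15, 8.05, and 8.26 in the PRF 50 livers. Stat5b, which transmits the signal, and Igf1, the main secreted target of GH in liver, also overlapped between the 3 groups. For Igf1 the group means were 7.41 ± 0.12 (ND), 7.28 ± 0.13 (HFD), and 7.30 ± 0.25 (PRF 50; SD). In HFD vs. ND, 2 of 17 genes were called (1 was higher and 3 were lower at an unadjusted p under 0.05), both lower: Socs2, by -1.17 ± 0.20 (limma, adjusted p = 0.0331), and Cish, by -1.96 ± 0.32 (adjusted p = 0.0318). Both are feedback inhibitors that pulses of GH turn on. Stat5a and Igfbp2, chosen after their values were seen, were not called but did not overlap between these groups: HFD minus ND was 0.61 ± 0.14 (SE; limma, adjusted p = 0.102) for Stat5a and -1.39 ± 0.37 (adjusted p = 0.143) for Igfbp2. With any 1 mouse left out, Socs2 was not called (adjusted p from 0.0579 to 0.116), and Cish was called only without HFD mouse 1 or without HFD mouse 3 (adjusted p over the 6 fits from 0.0248 to 0.108).

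Neither was called in PRF 50 vs. HFD, where limma with Benjamini-Hochberg adjustment called 0 of 17 genes. At an unadjusted p under 0.05, 3 were higher and 1 lower, against 2039 of all 10084 tested genes. Socs2 was 1 of the 3, with PRF 50 minus HFD of 0.66 ± 0.28 (SE, unadjusted p = 0.046) and all PRF 50 livers above the HFD livers, which were at 1.98, 2.56, and 2.34. Without PRF 50 mouse 10, Socs3 was called higher in PRF 50 vs. HFD. Limma called 0 of 17 in PRF 50 vs. ND (1 was higher and 2 were lower at an unadjusted p under 0.05), and Cish was called lower without PRF 50 mouse 10. Within the PRF 50 group, the livers differed from each other. Socs2 was 2.62, 2.66, and 3.59 and Cish 1.85, 1.41, and 3.33 in PRF 50 mice 3, 9, and 10. Only mouse 10 was near the ND livers, which lay between 3.16 and 3.78 for Socs2 and between 3.67 and 4.23 for Cish. Onecut1, a liver factor that GH induces, was singled out after its values were seen: it was 1.76, 1.98, and 4.25 in the same mice, 3.52, 3.53, and 4.64 in the ND livers, and 2.06, 2.61, and 2.25 in the HFD livers. Bcl6, a repressor that competes with STAT5 at its binding sites, was 3.72, 4.48, and 1.55 in PRF 50 mice 3, 9, and 10, against 1.59, 1.43, and 1.15 in the ND livers and 2.46, 2.17, and 3.78 in the HFD livers. Without PRF 50 mouse 10, Bcl6 was called higher in PRF 50 vs. ND. Hsd3b5 and Selenbp2 were far above the HFD livers in all 3 PRF 50 livers, and the lowest of these, mouse 9, had Hsd3b5 at 6.79 beside 6.93 in the lowest ND liver.

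Onecut1 belongs to a named list of 15 transcription factors of sex-biased genes in liver, all of which were tested, and Bcl6 to the list of other male-biased genes. Limma with Benjamini-Hochberg adjustment called 0 in HFD vs. ND, and Onecut1 was called lower without ND mouse 9. At an unadjusted p under 0.05, 3 were higher and 6 lower, against 1504 of all 9978 tested genes. Limma also called 0 in PRF 50 vs. ND, with 1 higher and 4 lower at that level, against 1256 of all 10051. In PRF 50 vs. HFD, 0 were called higher (1 at an unadjusted p under 0.05) and 1 lower, the xenobiotic receptor Nr1i3, by -0.93 ± 0.17 (SE; limma, adjusted p = 0.0336). Nr1i3 was 5.65, 5.28, and 5.05 in the ND livers, 6.23, 5.71, and 6.22 in the HFD livers, and 5.06, 5.32, and 4.97 in the PRF 50 livers. It was called in only the fits without HFD mouse 2 or PRF 50 mouse 9 of the 6 that left out 1 mouse (adjusted p from 0.0427 to 0.115), and Foxa3 was called higher in only the fit without HFD mouse 1.

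**Figure D4:**
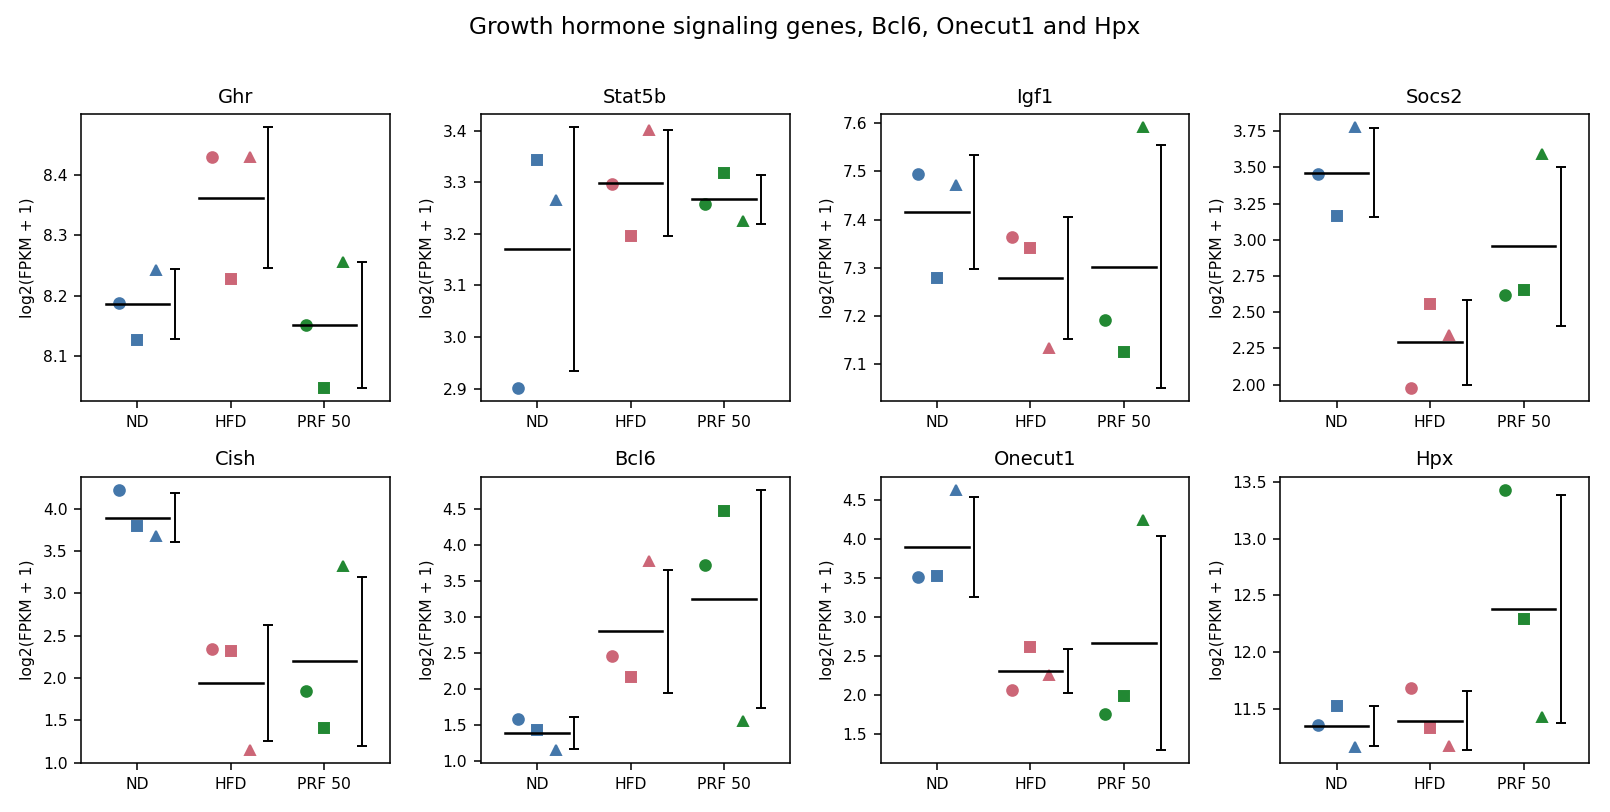
Level of GH signaling genes and of Bcl6, Onecut1, and the acute-phase gene Hpx in each liver, as log2(FPKM + 1) on the vertical axis (axes differ and do not start at 0) and the group on the horizontal axis. Points are livers, the line is the mean and the bar the SD; PRF 50 mouse 10, the triangle, is near the ND livers for Cish and Onecut1, and PRF 50 mice 3 and 9 are not.

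Among the marker lists of other cell types, those of Kupffer cells and adipocytes held genes called in PRF 50 vs. HFD. Of 11 markers of Kupffer cells, the macrophages of the liver, 10 were called higher (limma with Benjamini-Hochberg adjustment) and none was listed at 0 in all 9 livers. The number called was 0 without HFD mouse 3, 1 without HFD mouse 2 or PRF 50 mouse 3, and 5 without PRF 50 mouse 10, and all 11 markers were higher in every PRF 50 liver than in every HFD liver. Their summed level was 94.7, 178, and 222 FPKM in ND mice 6, 7, and 9, 115, 181, and 183 FPKM in HFD mice 1, 2, and 3, and 622, 378, and 403 FPKM in PRF 50 mice 3, 9, and 10. The most abundant marker, Cd5l, was 7.02, 6.29, and 6.49 in the PRF 50 livers and 4.47, 5.14, and 5.43 in the HFD livers. Among the 10 called, the largest differences were 1.60 for Adgre1, 1.59 for Cd5l, 1.49 for Timd4, 1.45 each for C1qb and C1qc, and 1.40 for Csf1r. The marker not called, Marco, had the largest difference of the 11, 2.61 ± 0.82 (SE; limma, adjusted p = 0.135), and was 5.90, 2.21, and 4.38 in the PRF 50 livers and 1.23, 2.10, and 1.33 in the HFD livers. Limma with Benjamini-Hochberg adjustment called 0 of the 11 in PRF 50 vs. ND. All 11 were higher at an unadjusted p under 0.05, against 1256 of all 10051 tested genes that were higher or lower at that level. Limma called 0 in HFD vs. ND, with 0 at that level. In bulk liver, more cells of a type and more RNA per cell cannot be told apart, as fewer cells and less RNA per cell cannot, and the part of these markers in the levels of the 9 genes was not tested.

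Of 5 adipocyte markers, 2 were tested in PRF 50 vs. HFD and Cidec, a lipid droplet protein, was called lower, by -2.72 ± 0.48 (SE; limma, adjusted p = 0.0336). Of the 6 fits that left out 1 mouse, it was called only in those without HFD mouse 1 or PRF 50 mouse 9 (adjusted p from 0.00392 to 0.106), and of these 2 groups it reached 1 FPKM on average in the HFD group only. The summed level of the list was 15.1, 15.6, and 21.5 FPKM in the ND livers, 10.03, 37.7, and 36.5 FPKM in the HFD livers, and 10.9, 17.8, and 21.6 FPKM in the PRF 50 livers. Fabp4 was its most abundant gene, with PRF 50 minus HFD of -0.04 ± 0.46 (SE) and overlapping groups. Lep and Plin1 were listed at 0 in all 9 livers, and Adipoq was above 0 only in HFD mice 2 and 3, at 0.35 and 0.14. The call of Cidec is thus not read as a difference in adipocytes. Of 6 monocyte and neutrophil markers, 3 were tested, limma with Benjamini-Hochberg adjustment called 0, and 2 were higher at an unadjusted p under 0.05. Their summed level was 4.45, 10.7, and 6.95 FPKM in the ND livers, 6.09, 4.30, and 6.61 FPKM in the HFD livers, and 58.8, 19.2, and 6.44 FPKM in the PRF 50 livers, with S100a8 the most abundant and none at 0 in all livers. PRF 50 mice 3 and 9 were the highest, and 1 of the 3 was called higher without PRF 50 mouse 10. The part of both lists in the levels of the 9 genes was not tested.

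Of 8 stellate cell markers, 7 were tested in both comparisons with the HFD group. Limma with Benjamini-Hochberg adjustment called 0 in HFD vs. ND, with 2 higher at an unadjusted p under 0.05, and 0 in PRF 50 vs. HFD, with 2 lower at that level. These were the collagen genes Col1a1 and Col3a1 each time, named here after their values were seen. Col1a1 was 0.65, 0.62, and 0.68 in the ND livers, 1.15, 1.73, and 1.39 in the HFD livers, and 0.91, 0.99, and 0.99 in the PRF 50 livers. Col3a1 was 1.54, 1.70, and 2.24 in the ND livers, 2.53, 2.97, and 2.59 in the HFD livers, and 2.17, 2.15, and 2.51 in the PRF 50 livers, so the HFD livers were the 3 highest for both genes. Col1a1 was called higher in HFD vs. ND without HFD mouse 1, and Col3a1 without ND mouse 9. The summed level of the list was 62.1, 80.5, and 102 FPKM in the ND livers, 87.7, 109, and 85.7 FPKM in the HFD livers, and 80.0, 96.4, and 131 FPKM in the PRF 50 livers, with Dcn the most abundant and none at 0 in all livers.

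None of 9 lymphocyte markers reached the minimum level in any comparison, so they were not tested. Their summed level was 5.27, 4.26, and 2.26 FPKM in the ND livers, 1.67, 1.62, and 1.54 FPKM in the HFD livers, and 5.38, 2.14, and 2.19 FPKM in the PRF 50 livers. The HFD livers were the 3 lowest. Nkg7 was the most abundant, and none was at 0 in all livers. In the lists of sinusoidal endothelial, cholangiocyte, and hepatocyte markers, 8, 1, and 10 genes were tested in PRF 50 vs. HFD, and limma called 0 (1, 0, and 1 were higher and 0, 0, and 1 lower at an unadjusted p under 0.05). In HFD vs. ND, limma also called 0 of 8, 1, and 10. At an unadjusted p under 0.05, 0 were higher and 1, 0, and 2 lower. Of the endothelial markers, 7 of 8 were below 0 in HFD vs. ND (median -0.49). Of the hepatocyte markers, 7 of 10 were below 0 (median -0.18), and Cps1 was called lower without HFD mouse 1. The part of these lists in the levels of the 9 genes was not tested.

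The summed level of 17 acute-phase genes was 13370, 14900, and 12420 FPKM in ND mice 6, 7, and 9, 15210, 13520, and 11320 FPKM in HFD mice 1, 2, and 3, and 45750, 30650, and 13410 FPKM in PRF 50 mice 3, 9, and 10. No gene of the list was listed at 0 in all livers, and its most abundant gene, Hpx, was 13.43, 12.29, and 11.42 in the PRF 50 livers. The summed level was high in PRF 50 mice 3 and 9 only, the 2 livers with low Cish and Onecut1 and high Bcl6 of this group. In HFD mice 1, 2, and 3, Cish was also low (2.34, 2.32, and 1.14), as was Onecut1 (2.06, 2.61, and 2.25), without a high summed level. HFD mouse 3 had Bcl6 at 3.78 and the lowest summed level of the 9 livers. A relation between these genes and the acute-phase genes was not tested. Limma called 0 of the 17 genes in PRF 50 vs. HFD, and 7 were called higher without PRF 50 mouse 10. At an unadjusted p under 0.05, 5 were higher, against 2039 of all 10084 tested genes that were higher or lower. Limma called 0 in PRF 50 vs. ND (5 were higher at an unadjusted p under 0.05), and 5 were called higher without PRF 50 mouse 10. In HFD vs. ND, 1 was called higher and 0 lower, and 6 were higher and 1 lower at an unadjusted p under 0.05. The called gene was Lcn2, at 1.78, 2.87, and 1.74 in the ND livers, 4.92, 3.80, and 4.54 in the HFD livers, and 9.57, 7.39, and 2.17 in the PRF 50 livers. HFD minus ND was 2.29 ± 0.36 (SE; limma, adjusted p = 0.0309), and Lcn2 was called in only the fits without HFD mouse 2 or ND mouse 7 of the 6 that left out 1 mouse (adjusted p from 0.0227 to 0.115). The part of the acute-phase genes in the levels of the 9 genes was not tested.

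The genes most like the mean standardized profile of the 9 genes over the 9 livers were sought among 592 other genes, those that averaged 1 FPKM or more and had an SD of 0.5 or more. The measure was the mean absolute difference between standardized values. The 10 nearest were Lifr, Serpina1e, C8b, Gstp1, Adgrf1, Tgm1, C6, Cdh1, Cyp7b1, and Egfr, with differences of 0.22 to 0.37, where the median over the 592 genes was 1.06. Serpina1e, Gstp1, Adgrf1, C6, Cyp7b1, and Egfr were on the list of other male-biased genes, which holds 15 of the 592 genes. That list was itself chosen with results of these livers known, so nothing is read from this count. Lifr, the receptor of leukemia inhibitory factor, was 5.87, 5.70, and 5.53 in the ND livers, 5.16, 4.69, and 4.78 in the HFD livers, and 5.66, 5.46, and 6.25 in the PRF 50 livers. Among the 9 genes themselves the difference from the shared profile was 0.19 for Selenbp2, 0.26 for Hsd3b5, and 0.31 for Cib3, but 1.08 for Elovl3 and 1.02 for Cyp2d9. The mean profile was thus nearer to the first 3 and does not describe the whole set. Each of the 9 genes is part of that mean, so their differences are not compared with those of the 592 other genes.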

How the data were processed

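Liver RNA-Seq of 9 mice (3 per group) was analysed, with groups taken from the sample labels. Libraries were from poly(A) RNA with paired-end reads. After trimming, the authors used TopHat for mapping (mm10 is named in the submitters' processing notes) and Cufflinks for FPKM, with a geometric normalization. The authors deposited 1 log2 value per gene symbol, read here as log2(FPKM + 1); the constant 1 is inferred from a lowest value of 0. Tool versions and the annotation are not given in the sources used here. Without counts in use here, the counting error is unknown and is largest for low values.

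R (version 4.3.3) and limma (version 3.58.1) were used to fit differences (lmFit, then eBayes with trend on) to the 6 mice compared, for genes averaging 1 FPKM or more. Adjusted p-values are Benjamini-Hochberg values over all tested genes. Python (version 3.11.15), pandas (version 2.3.3), and Biopython (version 1.88) were used for the summaries and the alignment. The fit and the search for like genes were tested on simulated data. Positions were taken from GENCODE M21 and promoter sequences from RefSeq GRCm38.p6.

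The 9 genes and all gene lists were chosen with earlier results of these data known. The named genes were the 9 genes, up to 6 genes past the threshold per list and comparison with the largest absolute difference, the most abundant gene of a cell marker list, tested relatives, Ghr, Stat5b, Igf1, Socs2, Cish, and Bcl6, the 10 most alike genes, and Alb. Alternatives were a joint fit of the 9 mice, omission of each mouse, other minimum levels (none, or 10 FPKM), a pseudocount of 0.1, quantile or median-of-ratios normalization, eBayes with the trend off, and a shorter promoter window.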

Additional observations from a re-analysis of the deposited data

How the results depend on the processing

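Without a minimum level, the number of genes called was 126 in PRF 50 vs. HFD (362 as reported), 37 in HFD vs. ND (133), and 11 in PRF 50 vs. ND (46), and more genes were tested. With all 9 mice in 1 fit, 107 genes were called in PRF 50 vs. ND. With 1 mouse left out, and fewer samples in the fit, between 15 and 242 genes were called in PRF 50 vs. HFD, between 35 and 140 in HFD vs. ND, and between 4 and 71 in PRF 50 vs. ND. Without a minimum level, 3 male-biased genes were called lower in HFD vs. ND (9 as reported). Female-biased calls were 1 in HFD vs. ND and 2 in PRF 50 vs. HFD (4 each as reported), both without a minimum level and with a minimum of 10 FPKM. The median difference of the 9 genes was 2.34 in PRF 50 vs. HFD under quantile normalization (1.41 as reported) and -0.95 in HFD vs. ND with a pseudocount of 0.1 (-0.38 as reported), and the cause was not tested. With 1 mouse left out it lay between 1.20 and 1.75 in PRF 50 vs. HFD, between -0.50 and -0.25 in HFD vs. ND, and between 0.20 and 1.15 in PRF 50 vs. ND. Differences of single genes changed sign in 7, 8, and 3 of 81 values each in PRF 50 vs. HFD, HFD vs. ND, and PRF 50 vs. ND, for Elovl3, Cyp2d9, Mup3, Mup20, Slc3a1, and Hsd3b5, none larger than 0.20 as reported. No paired analysis was possible because the groups hold different animals, also where mouse numbers are equal. The depth in reads is unknown, which limits the genes with low levels, Moxd1 and Cib3 among them.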
